A study of Harpegnathos saltator with 36 samples.

Results

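The genes described here are the most abundant transcripts in the brain of the ant Harpegnathos saltator. They are the 150 genes with the highest mean CPM (reads of a gene scaled to the same total of reads on genes in every brain) over 18 brains, less 3 genes whose CPM varied more than 10-fold between brains in both treatment groups. The rule left 147 of 18429 listed genes, or 0.798%. They were chosen by measured CPM, so their levels and ranks are given as a description, with no test.

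Harpegnathos workers duel with their antennae when a colony loses its queen, and winners become gamergates, workers that mate and lay eggs. Corazonin is an insect neuropeptide that acts through its own receptor, and it has been linked to the worker state in this ant. The most abundant polyadenylated transcripts of a tissue take a large part of its reads, so they are the genes with the smallest counting error, and they set much of the scale on which other genes are read. No gene role is given below, since the files list gene IDs without names. None of those IDs matched the reference gene table, which holds 14329 genes.

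Brains without optic lobes came from dueling Harpegnathos workers on day 6 of the transition, after 3 days of dueling, in nests of 6 ants. In each nest, 3 ants received siRNA against the corazonin receptor (CrzR) and 3 received siRNA against GFP, a jellyfish gene that ants do not carry, as the control. All ants were injected in the head with Dicer-substrate siRNA (5 µM, 0.5 µl per ant), so both groups share the injection, the dueling and the nests, and brains were taken 1 day later. The labels do not say which brain came from which nest, so nest is not a term in any fit below. No mutation or transgene was used. Each library held polyadenylated RNA of 1 brain, with 9 brains per siRNA, and its 2 sequencing runs had been added together in the deposited counts. The level of the receptor itself and markers of brain cell types were not analysed here, since they need gene names. In RNA from all cells of a sample together, fewer cells of a type and less RNA per cell cannot be told apart.

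Gene counts per brain ran from 9508039 to 23749133, with CrzR siRNA replicate 6 the shallowest library and CrzR siRNA replicate 8 the deepest. Rows for ribosomal and other small RNA classes took 0.470% to 3.18% of all counts. Small nuclear RNA ran from 129 to 1685 CPM of all counts and was highest in the shallow libraries of CrzR siRNA replicate 6 and GFP siRNA replicate 9. One control library, GFP siRNA replicate 1, had 7.34% of its gene counts on the 3 genes dropped for their range, and one of these, Hsal_05415, reached 49462 CPM there. In the other brains these 3 genes together held at most 1.29%.

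The 147 genes held a large share of the gene counts of every brain, and the shares of the siRNA groups overlapped. Their share ran from 26.1% to 36.7%, with a median of 33.1%. Counting error was small beside this range, since the shallowest library had 3022899 counts behind its share and an exact 95% binomial interval of 31.76% to 31.82%. Such intervals cover counting error only, because reads without molecular identifiers are not independent molecules. In the CrzR siRNA brains the share was 31.9% ± 2.53 (SD, n = 9), with a lowest value of 26.1%, a median of 32.8% and a highest of 34.4%. In the GFP siRNA brains it was 33.9% ± 2.19 (SD, n = 9), with a lowest value of 29.9%, a median of 33.7% and a highest of 36.7%. The groups overlapped over most of their ranges. Of 9 CrzR siRNA brains, 7 lay below the median of the GFP siRNA brains, and 1, the deepest library, lay below all of them. The difference of the means was -1.94 percentage points. It was smaller than the SD in either group, which measures the spread of single brains and not the error of a mean. With CrzR siRNA replicate 8 left out the difference was -1.21 points, and with GFP siRNA replicate 1 left out it was -2.43. With the 3 dropped genes out of the gene counts it was -2.21.

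Reads were spread over more genes in the CrzR siRNA brains and in the deeper libraries. The number of genes that together held 50% of gene counts was 482 ± 62.0 (SD, n = 9) with CrzR siRNA, from 407 to 572, and 406 ± 71.0 (SD, n = 9) with GFP siRNA, from 317 to 515. Over the 18 brains the share of the 147 genes was lower in deeper libraries, with Pearson's r of -0.49 and Spearman's rho of -0.47 against log2 gene counts. With the 2 brains of most extreme depth left out r was -0.58, and it was -0.53 within each siRNA group. The number of genes holding 50% of counts rose with depth more closely, with r of 0.68, rho of 0.72, and r of 0.85 within CrzR siRNA and 0.75 within GFP siRNA. These are descriptions over brains that share no library, and whether depth, RNA input or the brains themselves moved the share was not tested.

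**Figure D1:**
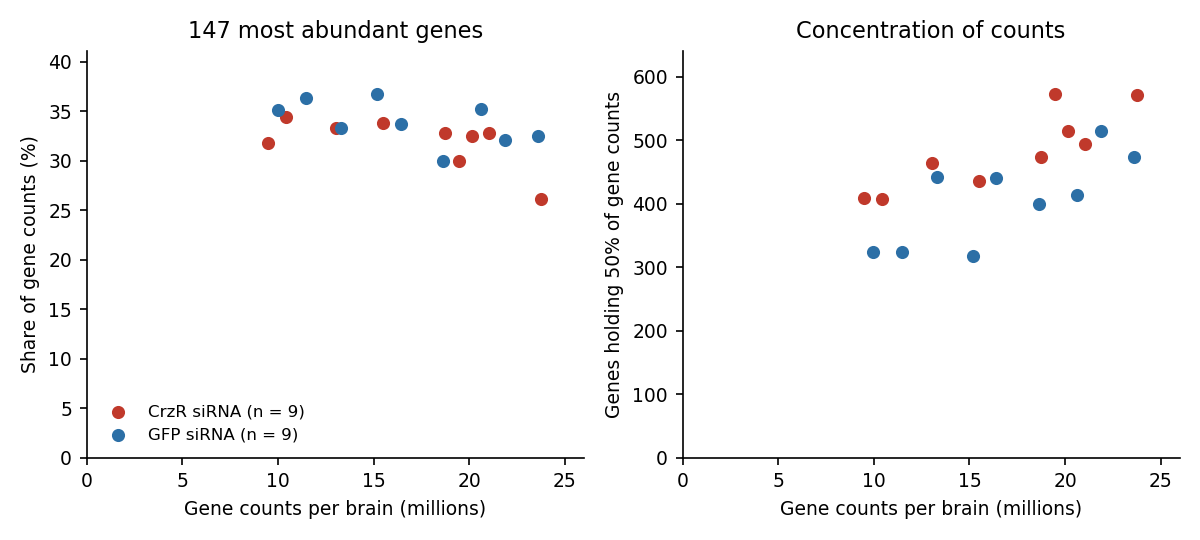
Left, the percent of gene counts held by the 147 most abundant genes in each of 18 brains against gene counts per brain; right, the number of genes that together hold 50% of gene counts. Each point is 1 brain, red for CrzR siRNA and blue for GFP siRNA; shares run from 26.1% to 36.7%, and the lowest is the deepest library, while the number of genes runs from 317 to 572 and is higher in deeper libraries.

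Within the 147 genes, reads were concentrated on the first few. The gene with the highest mean CPM held 0.687% to 2.29% of a brain's gene counts. In order of mean CPM, the first 10 held 6.81% to 10.3%, and the first 50 held 15.8% to 25.4%. The share of the first 10 was 8.52% ± 0.914 (SD, n = 9) with CrzR siRNA and 8.89% ± 0.871 (SD, n = 9) with GFP siRNA, a difference smaller than either SD. That share had an r of 0.24 with log2 depth over all brains and -0.10 with the same 2 brains left out, so the negative relation of all 147 genes with depth did not appear in the first 10.

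Hsal_13508, a gene of 1037 bases, was first by mean level and ranked 1st in 9 of the 18 brains. Its level was 6865, 13481 and 18102 CPM at the lowest, median and highest CrzR siRNA brain, and 9133, 14902 and 22939 CPM for GFP siRNA. The groups overlapped, and 8 of 9 CrzR siRNA brains lay below the GFP siRNA median. Hsal_04673, of 3929 bases, ranked 1st in 7 brains. Its levels were 10368, 13718 and 15101 CPM with CrzR siRNA and 8103, 12842 and 17007 CPM with GFP siRNA, so the CrzR siRNA brains lay inside the range of the controls. The lowest control value was in GFP siRNA replicate 9, a shallow library. In the remaining 2 brains the first place went to Hsal_05415 in GFP siRNA replicate 1, one of the 3 dropped genes, and to Hsal_09892 in GFP siRNA replicate 9.

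Hsal_13807 also stood among the first 10 of every brain, as did only Hsal_13508 and Hsal_04673. It measured 5991, 10142 and 13269 CPM at the lowest, median and highest CrzR siRNA brain and 7108, 9817 and 13687 CPM with GFP siRNA. Medians of the groups were close and the ranges overlapped. Hsal_01307 measured 5951, 7591 and 9819 CPM with CrzR siRNA and 7255, 8286 and 12868 CPM with GFP siRNA. For this gene 8 of 9 CrzR siRNA brains lay below the control median, although the ranges overlapped. Hsal_09892 measured 4866, 7536 and 10659 CPM with CrzR siRNA and 4901, 7771 and 17322 CPM with GFP siRNA, where the highest value stood alone in replicate 9. The other five, Hsal_09428, Hsal_04120, Hsal_06360, Hsal_13133 and Hsal_07890, had means between 6148 and 7009 CPM over all brains and fell to rank 15 to 40 in their lowest brain. From Hsal_01307 down to Hsal_07890, neighbours in this order differed by less than their SD within a group, as did the first and second genes.

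Most of the 147 genes stayed near the top in every brain, but the exact list varied from brain to brain. Of them, 63 were among the first 150 genes of all 18 brains and 137 were among the first 150 of at least 9. In the first 300 of every brain stood 103, while 21 fell below rank 500 in at least 1 brain. The lowest rank of any was 2587, for Hsal_09106 in GFP siRNA replicate 4, where it measured 67.0 CPM against 810 to 1449 CPM in the other control brains. Counting error was at most 3.13% for any of the 147 genes in any brain, since the smallest count was 1019.

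A brain's own first 150 genes held between 102 and 136 of the 147, with a median of 122.5. The fewest were in CrzR siRNA replicate 8, the deepest library, and the most in CrzR siRNA replicate 1. Besides the 3 dropped genes, 146 other genes entered the first 150 of some brain, but only 1 of them did so in at least 9 brains. The 150 genes with the highest mean in the CrzR siRNA brains alone and the 150 with the highest mean in the GFP siRNA brains alone had 135 genes in common, 90% of each list. Each of these lists held 140 of the 147 genes (95.2% of these and 93.3% of the list), an overlap that is partly built in, since both groups entered the mean that chose the 147.

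At the limit of the rule, Hsal_07836 was just inside at rank 150 with 800 CPM and Hsal_05344 just outside with 798 CPM. At the range limit, Hsal_16426 stayed inside with a 9.05-fold range in the CrzR siRNA brains and 14.9-fold in the controls. The nearest gene outside, Hsal_04753, was well past the limit, with a 28.4-fold range in the CrzR siRNA brains and 175-fold in the controls. In all, 6 of the 147 genes passed 10-fold in 1 group and were kept.

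The order of the 147 genes was similar in most pairs of brains and no more similar within an siRNA group than between groups. Spearman's rho of CPM over the 147 genes had a median of 0.79 over the 153 pairs of brains, 0.78 within CrzR siRNA, 0.79 within GFP siRNA and 0.80 between the groups. It ran from 0.32, between CrzR siRNA replicate 8 and GFP siRNA replicate 7, to 0.96, between CrzR siRNA replicate 4 and GFP siRNA replicate 8. Depth moved with this agreement. The 48 pairs whose depths differed by under 0.25 on the log2 scale had a median rho of 0.88, and the 39 pairs that differed by over 0.75 had 0.62. Over the 150 genes next in mean CPM, whose levels lie closer together, the median was 0.24. All points share the brains, so these values carry no test.

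CPM does not correct for gene length, and long genes collect more reads per transcript. The median length of the 147 gene models was 3139 bases (385 to 21441), against 1613.5 bases over the 10132 genes tested below, and 32 of the 147 were shorter than that median. On a scale per length, RPKM (reads scaled by gene length and by the brain's gene reads, recomputed from the counts), 76 of the 147 genes remained among the first 150. Hsal_13508 was first on this scale too, at a level of 13634 RPKM. Hsal_07757, a gene of 16141 bases, had the lowest place of the 147, rank 1957. Rank agreement between brains computed from RPKM was higher, with a median rho of 0.95 over the same 147 genes. Division by a fixed length changes the spacing between genes and leaves the relative spread of each gene between brains as it was.

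Of the 147 genes, 4 pairs had consecutive IDs, and 3 of those pairs varied together within siRNA groups. Hsal_01171 and Hsal_01172, both of 486 bases, had an r of 0.89. Hsal_11311 had an r of 0.84 with Hsal_11310 and of 0.85 with Hsal_11312, while Hsal_08429 and Hsal_08430 had -0.02. Over all pairs of the 147 genes, 27.4% had a within-group r over 0.5. Whether genes of a pair are near-identical copies was not examined. If they are, they could share reads in the authors' counting, and the split within the pair would be uncertain.

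Levels of the 147 genes varied slightly less between brains than those of other genes. The coefficient of variation (CV, the SD over the mean) of CPM within an siRNA group, averaged over both groups, had a median of 26.1% over the 147 genes, with quartiles of 19.4% and 37.2%. It was 30.0% over the 150 genes next in mean CPM and 32.0% over all genes tested. The range rule removed the 3 most variable candidates and was not applied to the other sets, which lowers the value of the 147 genes. These CVs include counting error, which is larger for genes with fewer reads. The square root of edgeR's dispersion sets that error apart. Its median was 30.9% for the 147 genes, 34.6% for the next 150 and 33.1% over all tested genes. The median CV of the 147 genes was 25.3% in each siRNA group. The same genes were variable in both groups, with a rho of 0.80 over the 147 genes between the 2 CVs, and the libraries of both groups span similar depths. In both groups 27 genes stayed under 20%, and 9 exceeded 50%.

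Spread was smaller at the top of the list. Median CV was 22.4% for ranks 1 to 50, 30.5% for ranks 51 to 100 and 29.8% after rank 100. The steadiest gene was Hsal_03049, with a mean CV of 11.0%. It measured 1837, 2037 and 2356 CPM at the lowest, median and highest CrzR siRNA brain and 1533, 1807 and 2240 CPM with GFP siRNA. Hsal_00166 and Hsal_08423 followed, with CVs of 11.1% and 12.2%. These 3 genes lay between ranks 52 and 142, so low spread was not a property of the very first genes alone.

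The most variable gene was Hsal_06970, with a mean CV of 72.8%. It measured 461, 1071 and 4334 CPM with CrzR siRNA and 510, 995 and 2750 CPM with GFP siRNA, and the highest value stood alone in CrzR siRNA replicate 3. Hsal_00850 had a CV of 69.8%, with 378, 673 and 1954 CPM with CrzR siRNA and 418, 939 and 3239 CPM with GFP siRNA. Its highest control value was in replicate 9, a shallow library. Hsal_12595, a short gene of 824 bases, had a CV of 67.1%.

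**Figure D2:**
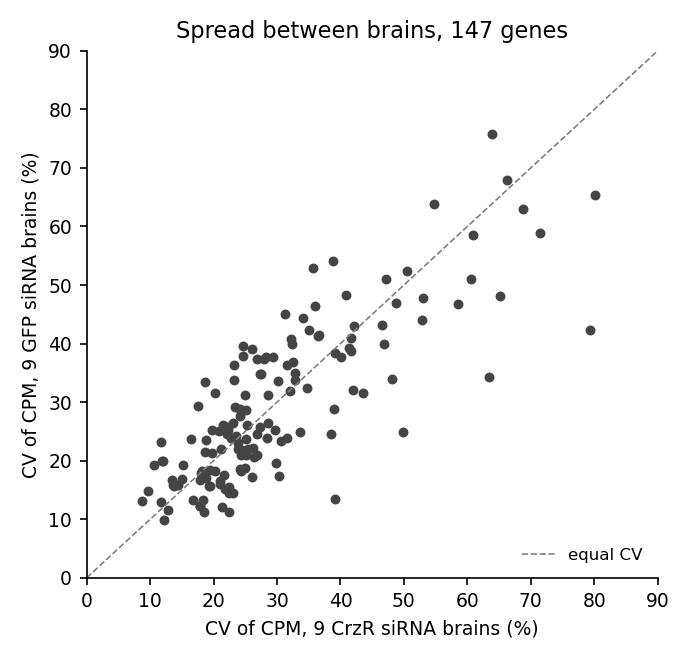
Coefficient of variation of CPM (%) over 9 CrzR siRNA brains against that over 9 GFP siRNA brains, 1 point per gene for the 147 most abundant genes, with a dashed line where both are equal. Points follow the line, with a rho of 0.80, and 9 genes lie above 50% in both groups.

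Whether receptor siRNA changed the most abundant transcripts was asked with edgeR's quasi-likelihood F test on the counts of all 10132 genes with a mean of at least 1 RPKM, with group as the only term and Benjamini-Hochberg adjustment over all of them. All 147 genes were tested. None passed an adjusted p of 0.05, in edgeR, in DESeq2 or in limma voom, where the share of all tested genes called was 0%, 0.0296% and 0.0395%. At an unadjusted p under 0.05, edgeR called 20 of the 147 genes, all lower with CrzR siRNA, and none higher. That is 13.6% of the 147, against a background of 3.41% lower and 4.68% higher over all tested genes. At the same unadjusted threshold DESeq2 called 25 genes, all lower (background 4.59% lower, 5.88% higher), and limma voom called 25 lower and 1 higher (background 10.2% and 12.3%). The lowest edgeR adjusted p of the 147 genes was 0.543. In the authors' deposited table the lowest adjusted p of these genes was 0.326 and their median log2 fold change was -0.20.

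The fitted values leaned towards lower levels with CrzR siRNA. Of the 147 genes, 117 had a log2 fold change below 0, against 49.9% of all tested genes, and none of these changes passed the adjusted test. Their median log2 fold change, CrzR over GFP siRNA, was -0.19, against 0.00 over all tested genes and -0.15 over the 150 genes next in mean CPM, so this lean was not confined to the first 147. It was -0.22 for the first 50 of the 147 genes, -0.19 for the next 50 and -0.16 for the remaining 47. Scaling bears on this value. TMM scaling is edgeR's correction for composition. With library size in its place, the median of the 147 genes was -0.07 and that of all tested genes 0.10. Then 7 genes in place of 20 had an unadjusted p under 0.05, and the background in that setting is not given.

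The intervals were narrow for most of these genes. The median SE of a log2 fold change was 0.19, against 0.22 over all tested genes. For 125 of the 147 genes (85.0%, against 74% of all tested genes) the 95% interval lay within a 2-fold change in either direction, and for 67 within 1.5-fold, against 38.5% of all tested genes. Fitted changes ran from -0.77 for Hsal_09207 to 0.54 for Hsal_03837. Hsal_01307, 4th by mean CPM, had a log2 fold change of -0.38, with an interval of -0.68 to -0.08 and an edgeR adjusted p of 0.543. The other 9 of the first 10 genes had intervals that included 0.

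The smallest p of the genes lower with CrzR siRNA was that of Hsal_00817. It measured 589, 798 and 1118 CPM at the lowest, median and highest CrzR siRNA brain, against 801, 1080 and 1628 CPM with GFP siRNA. The ranges overlapped, with 8 of 9 CrzR siRNA brains below the control median. Its log2 fold change was -0.69 ± 0.20 (SE), with an edgeR p of 0.00202 before and 0.543 after adjustment. Hsal_11809 measured 1381, 1708 and 2439 CPM with CrzR siRNA and 1803, 2242 and 3477 CPM with GFP siRNA. Here too 8 of 9 CrzR siRNA brains were below the control median, with a log2 fold change of -0.53 ± 0.16 (SE) and an edgeR adjusted p of 0.543.

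In the other direction the smallest p was that of Hsal_00247. It measured 691, 908 and 1680 CPM with CrzR siRNA and 505, 657 and 1275 CPM with GFP siRNA. Of the 9 CrzR siRNA brains, 8 exceeded the control median. Its highest value was in the deepest library of each group. The log2 fold change was 0.26 ± 0.18 (SE), with an edgeR adjusted p of 0.547. Hsal_03837 measured 433, 980 and 2288 CPM with CrzR siRNA and 82.7, 597 and 1585 CPM with GFP siRNA, where the lowest value was in replicate 4. Its log2 fold change was 0.54 ± 0.40 (SE), with an edgeR adjusted p of 0.550. For none of the 147 genes did the brains of the groups lie apart without overlap, against 0.00987% of all tested genes that were lower with CrzR siRNA and 0% that were higher.

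**Figure D3:**
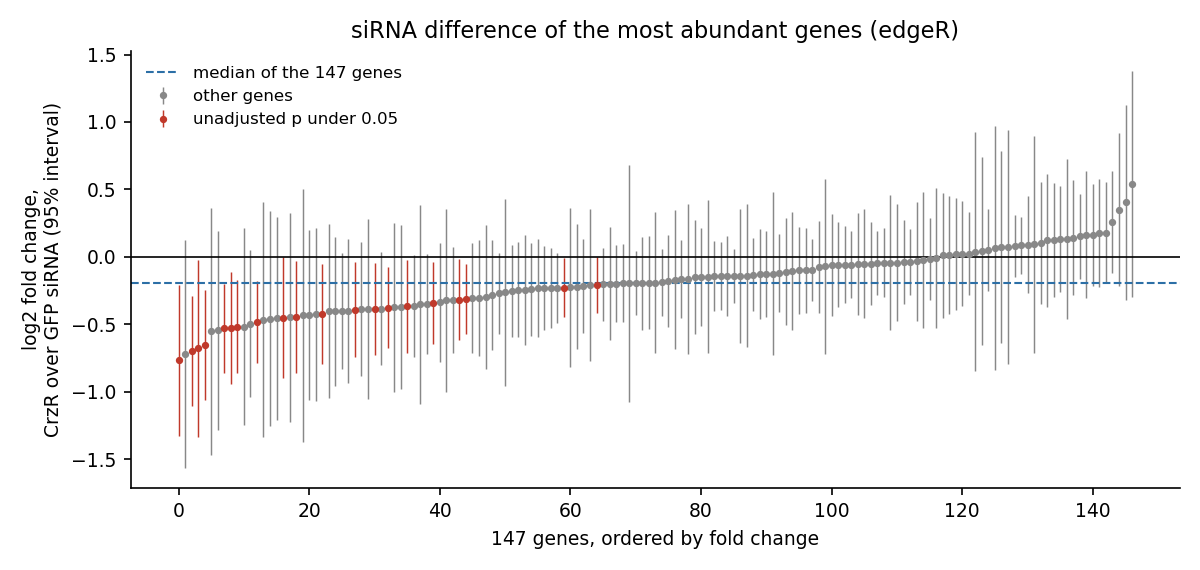
Fitted log2 fold change, CrzR over GFP siRNA, with its 95% interval from edgeR, for the 147 most abundant genes in order of fold change (9 brains per group). Red marks the 20 genes with an unadjusted p under 0.05, all below 0; the dashed line is the median, -0.19, and no gene passed the adjusted test.

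Library depth moved with many of these genes. In a fit with siRNA group and log2 gene counts as terms, edgeR called 86 of the 147 genes at an adjusted p under 0.05 for depth, which is 58.5% against a background of 57.4%, so the 147 genes were called about as often as the rest. Direction differed from the background. Of the 147 genes, 22 were higher in deeper libraries (15.0%, against 32.5% of all tested genes) and 64 were lower (43.5%, against 24.9%). The median slope was a log2 change of -0.33 per doubling of depth, against 0.14 over all tested genes and -0.34 over the 150 genes next in mean CPM. Slopes ran from -2.13 to 1.43. Scaling bears on the split by direction too. With library size in place of TMM scaling, 31 of the 147 genes were higher and 52 lower, and the background in that setting is not given.

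Hsal_03053 was the gene with the smallest p among those lower in deeper libraries. It measured 659, 1624 and 4365 CPM at the lowest, median and highest CrzR siRNA brain and 1307, 2750 and 4524 CPM with GFP siRNA. The lowest value of each group was in its deepest library, and the highest CrzR siRNA value was in the shallowest. The slope was -1.67 ± 0.16 (SE), with an edgeR adjusted p of 6.26e-07. Hsal_08282 measured 512, 892 and 1951 CPM with CrzR siRNA and 556, 1015 and 2490 CPM with GFP siRNA, with a slope of -1.62 ± 0.16 (SE) and an edgeR adjusted p of 6.27e-07. For this gene the highest value of each group was in its shallowest library.

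Of the genes higher in deeper libraries, Hsal_13189 had the smallest p. It measured 464, 1004 and 1205 CPM with CrzR siRNA and 387, 778 and 1380 CPM with GFP siRNA. In each group the lowest value was in the shallowest library and the highest in the deepest. The slope was 0.92 ± 0.12 (SE), with an edgeR adjusted p of 7.1e-06. Hsal_00422 measured 1735, 3749 and 4231 CPM with CrzR siRNA and 1377, 2704 and 3851 CPM with GFP siRNA, with a slope of 0.69 ± 0.14 (SE) and an edgeR adjusted p of 0.000524.

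The 64 genes that were lower in deeper libraries were shorter. Their median length was 2115.5 bases, against 3676 bases for the 22 higher genes and 3763 bases for the 61 genes not called. The same order of the first 2 held over all tested genes, with 1112.5 bases for lower and 2288 for higher genes, so it was not particular to the abundant ones. Over the 147 genes the slope had a rho of 0.29 with length, and 0.24 over all tested genes. Together the 64 lower genes held 7.03% to 18.7% of gene counts in a brain, with 7.03% in the deepest library and 16.1% in the shallowest. The 61 genes not called held 11.6% to 15.6%, a narrower range, and their median CV was 21.7%, against 33.4% for the lower and 27.5% for the higher genes. These differences in share and CV are partly built in, since the depth call in the same brains sorted the genes.

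**Figure D4:**
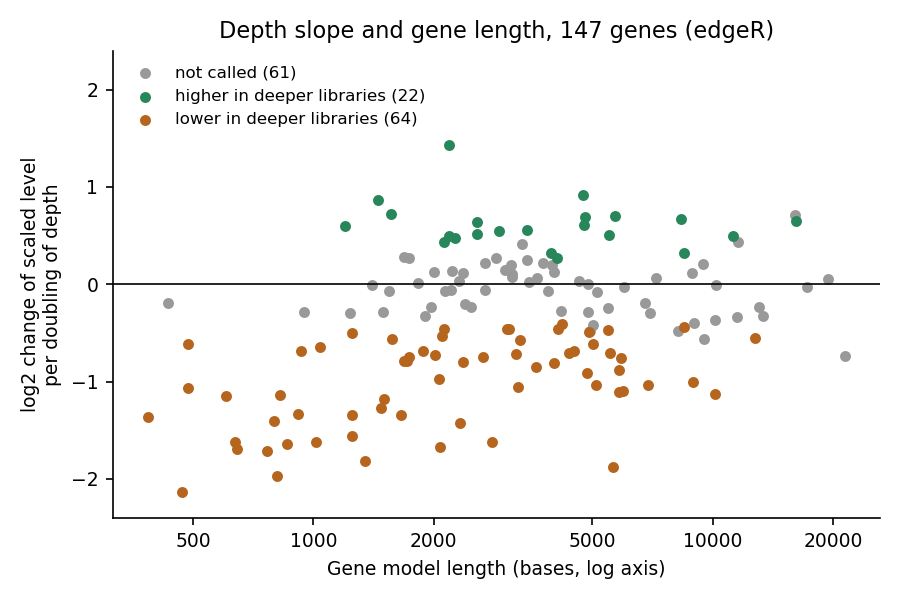
Fitted log2 change of the TMM-scaled level per doubling of library depth from edgeR, against gene model length in bases (log axis), 1 point per gene for the 147 most abundant genes. Green marks the 22 genes higher and brown the 64 genes lower in deeper libraries at an adjusted p under 0.05, grey the 61 not called; slopes run from -2.13 to 1.43.

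The genes fell on common axes of variation within groups. Over the 10731 pairs of the 147 genes the within-group r of log2 CPM had a median of 0.05, with 27.4% of pairs over 0.5 and 19.8% under -0.5, so groups of genes moved together and against each other. The first principal axis held 51.2% of the within-group variance of the 147 genes. Its score per brain had an r of 0.88 with log2 depth, 0.86 within CrzR siRNA and 0.91 within GFP siRNA, and 0.86 with the same 2 brains left out. It also had an r of -0.87 with the log2 share of small nuclear RNA. The second axis held 27.7% of the variance. Its r with depth was -0.33, and 0.00 without the same 2 brains, and GFP siRNA replicates 4 and 9 were its ends. Depth and the small nuclear RNA share moved together over these brains, and the part of either in the levels of the 147 genes was not tested.

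With log2 depth added to the siRNA fit, the lean towards lower levels remained. No gene passed an edgeR adjusted p of 0.05, and the lowest was 0.0966. At an unadjusted p under 0.05, 46 of the 147 genes were lower with CrzR siRNA and none higher (31.3%, against a background of 13.6% lower and 13.8% higher over all tested genes). At an adjusted p under 0.10, a looser threshold, 12 genes were lower and none higher (8.16%, against 3.38% lower and 3.41% higher over all tested genes). The median log2 fold change in this fit was -0.17. The fit without depth had 20 genes with an unadjusted p under 0.05. Of these, 14 were among the 61 genes with no depth call, 6 among the 64 lower genes and 0 among the 22 higher genes. The same split over all tested genes is not given. The siRNA fold change without depth rose with the depth slope, with a rho of 0.62 over the 147 genes and 0.73 over all tested genes. Its median was -0.31 in the 64 lower genes, -0.14 in the 61 not called and 0.08 in the 22 higher genes.

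The labels carry an internal reference number per library, and the numbers fall in a lower and a higher range. What they stand for is not stated. Among the 8 brains with numbers from 152 to 201, the share of the 147 genes was 32.8% ± 1.73 (SD, n = 5) with CrzR siRNA and 33.0% ± 2.73 (SD, n = 3) with GFP siRNA. Among the 10 brains with numbers from 12 to 111 it was 30.9% ± 3.23 (SD, n = 4) and 34.3% ± 1.98 (SD, n = 6). The difference in share between CrzR and GFP siRNA was -3.45 points in the second set and -0.183 points in the first. This contrast between the sets was not tested, and it leans on single libraries in both sets. In the first set, GFP siRNA replicate 1 was at 29.9%, and the other controls, replicates 2 and 3, were at 33.7% and 35.3%. CrzR siRNA replicate 8, the deepest library, is in the second set at 26.1%. The CrzR siRNA replicates 6, 7 and 9 of that set were at 31.8%, 32.8% and 32.8%.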

How the data were processed

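Each library was made from the polyadenylated RNA of 1 brain with the dUTP method, which keeps strand, per the labels' protocols. STAR 2.5.0b and DESeq2 are named in the submitters' processing notes. The counting tool, annotation and genome build are not given in the sources consulted here. The deposited table holds whole-number read counts per feature and brain, with the 2 runs of a brain added. Rows that name an RNA class and no gene (0.470% to 3.18% of counts) were left out of library sizes and tests. The authors' deposited RPKM values had been divided by totals between 0.176 and 1.23 times a brain's own gene total, so they served only to recover the lengths of 15941 genes, and RPKM was recomputed. The authors' deposited comparison table holds for each gene a mean signal (baseMean), the log2 fold change, and the p-value before and after adjustment.

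CPM is relative to gene counts. edgeR 4.0.16 in R 4.3.3 (quasi-likelihood F test, TMM scaling, two-sided) was run on all 10132 genes whose recomputed RPKM averaged at least 1, with limma 3.58.1 and DESeq2 1.42.0 as alternatives. The steps were tested on simulated data. Total counts ran from 9741263 to 24166021 per brain. Brains with the same replicate number did not consistently deviate together. The r of their deviations from the group means over the 147 genes ran from -0.59 to 0.78. It passed 0.1 in 3 of 9 pairs, so the numbers were not used to pair brains. No pair of brains agreed within sampling noise (smallest chi-square per degree of freedom 43.6).

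The members, lists and tests were chosen with earlier results of these data known. Named are the 10 genes with the highest mean CPM, the 2 with the smallest p per direction for siRNA and for depth, the 3 with the smallest and the 3 with the largest CV, and those at the limits of the rule. Other named genes were chosen after their values were seen. A permutation test of the share had been planned and its p is not given, since the share is a score over genes chosen by level. Alternatives changed the scaling, filter, test, threshold, list and denominator, or left out each brain in turn.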

Additional observations from a re-analysis of the deposited data

Results flagged for a closer look

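The 9 brains of each group were searched for a highest or lowest value far from its nearest neighbour, for 33 genes (those named by rule, the 3 genes dropped for their range and 4 extremes of rank or fold change), the share of the 147 genes and the number of genes holding 50% of counts. Of 70 groups of values, 8 held such a value. Chance gives about 1 in 20, but that rate is no yardstick here, since many of these genes were picked for their spread, range or extreme rank. For Hsal_09892, GFP siRNA replicate 9 had 17322 CPM, against 4901 to 9559 CPM in the other control brains. For Hsal_06970, CrzR siRNA replicate 3 had 4334 CPM, against 461 to 2002 CPM in the others of its group. For Hsal_16426, CrzR siRNA replicate 6 had 4282 CPM, against 473 to 2120 CPM. For Hsal_07757, CrzR siRNA replicate 8 had 2463 CPM, against 462 to 1121 CPM. For Hsal_09106, GFP siRNA replicate 4 had 67.0 CPM, against 810 to 1449 CPM. Of the 3 dropped genes, Hsal_04753 had 9131 CPM in GFP siRNA replicate 4, against 52.1 to 1082 CPM in the other control brains. In GFP siRNA replicate 1, Hsal_05415 had 49462 CPM, against 4.34 to 4092 CPM, and Hsal_03463 had 23632 CPM, against 3.11 to 3882 CPM. GFP siRNA replicate 9 and CrzR siRNA replicate 6 are the shallowest libraries of their groups, and CrzR siRNA replicate 8 is the deepest of all.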

How the results depend on the processing

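No member passed an adjusted p of 0.05 for siRNA under any scaling, filter, tool, covariate or left-out brain tried. Counting members at an unadjusted p under 0.05 gave 20, and depth as a covariate with an adjusted p under 0.10, added after seeing the data, gave 12. The count of 20 became 7 with library size alone and 46 with depth as a covariate, and leaving out 1 brain gave 9 (without GFP siRNA replicate 7) to 25. It was 10 or 11 without CrzR siRNA replicate 4 or 8 or GFP siRNA replicate 3 or 4. With the replicate number as a block, 0 members passed, 19 had an unadjusted p under 0.05 and the median log2 fold change was -0.18, so the block changed no adjusted call. A term for the set of reference numbers, also added later, gave 0 and 21. The share of all tested genes at this unadjusted threshold is not given for library size alone, left-out brains, the block or this term. The median log2 fold change stayed between -0.20 and -0.07 over other settings and between -0.23 and -0.13 with a brain left out. The difference in share was -2.43 to -1.21 points with a brain left out, and -2.74 with the 3 dropped genes kept. Members called for depth numbered 78 to 97 over other settings and 76 to 89 with a brain left out; without CrzR siRNA replicate 6 the higher members fell from 22 to 13. Rank agreement moved from 0.79 to 0.95 with RPKM. That scale divides a gene by the same length in every brain, so it changes the spacing between genes and not their CVs. Counting error was small, since the smallest count was 1019.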
